A study of Homo sapiens with 2 samples.

Results

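Chemokine genes typical of epithelial cells, 10 in all, were followed between a pair of tumours grown from NCI-N87, a line of human stomach cancer in which ERBB2, the gene of HER2, is amplified. They were chosen by name, CXCL1, CXCL2, CXCL3, CXCL5, CXCL6, IL8 (the older symbol of CXCL8), CXCL16, CX3CL1, CCL20 and CCL28, and all 10 were found among the 29972 genes of the table. The T-DM1-refractory group was 1 subcutaneous tumour in a nude mouse, dosed with the HER2 antibody-drug conjugate T-DM1 at intervals of 3 weeks over 18 weeks. The untreated group was 1 subcutaneous tumour of the same cell line in a nude mouse that received no treatment. Nude mice lack a thymus and most T cells but keep neutrophils, macrophages, B cells and NK cells. The sources used here do not give the age of the mice or when the untreated tumour was sampled. Polyadenylated RNA was sequenced to 59902712 expected counts (RSEM's estimate of reads per gene) in the refractory library and 75722114 in the untreated library. With 1 library per group there is no replicate, so no test across samples was possible, and every interval below is an exact 95% interval of counting error only.

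Chemokines are small secreted proteins that bind G protein-coupled receptors on leukocytes and draw those cells along a gradient. Epithelial cells make a set of them when pathogens, cytokines such as IL1 and TNF, or stress activate NF-kB, and short-lived transcripts with AU-rich elements make the response transient. CXCL1, CXCL2, CXCL3, CXCL5, CXCL6 and IL8 carry the Glu-Leu-Arg motif, bind CXCR1 or CXCR2 and recruit neutrophils. Carcinoma cells can make them without an outside stimulus. CXCL16, the ligand of CXCR6, and CX3CL1 (fractalkine), the ligand of CX3CR1, are anchored in the membrane and are released by the proteases ADAM10 and ADAM17. CCL20 binds CCR6 on dendritic cells and lymphocytes, and CCL28 binds CCR10 and CCR3 and draws antibody-secreting cells to mucosal surfaces.

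The neutrophil-recruiting chemokines CXCL5, IL8 and CXCL1 were scarcer in the refractory tumour, while fractalkine and CCL28 were more abundant. CPM below are counts scaled to a common library size (TMM), and a gene was described where the higher library reached 1 CPM. A gene was called higher or lower at a 2-fold difference in CPM after adding 1 CPM to both libraries, written as a log2 of refractory over untreated. Of the 10 genes 8 were described, of which 2 were called higher (CCL28 and CX3CL1), 3 lower (CXCL5, IL8 and CXCL1) and 3 neither (CXCL2, CXCL3 and CXCL16). CXCL6 and CCL20 were under 1 CPM in both libraries. Among all 14167 described genes 9.80% were called higher, 11.0% lower and 20.8% in either direction. CCL28 passed 1 CPM in the refractory library alone and CXCL5 in the untreated library alone, so the share called among the 8 is no measure against that background. The median log2 of the 8 was 0.04, as the genes lay on both sides, against 0.03 for all described genes. In bulk tumour RNA, fewer cells making a transcript and less of it per cell cannot be told apart.

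**Figure D1:**
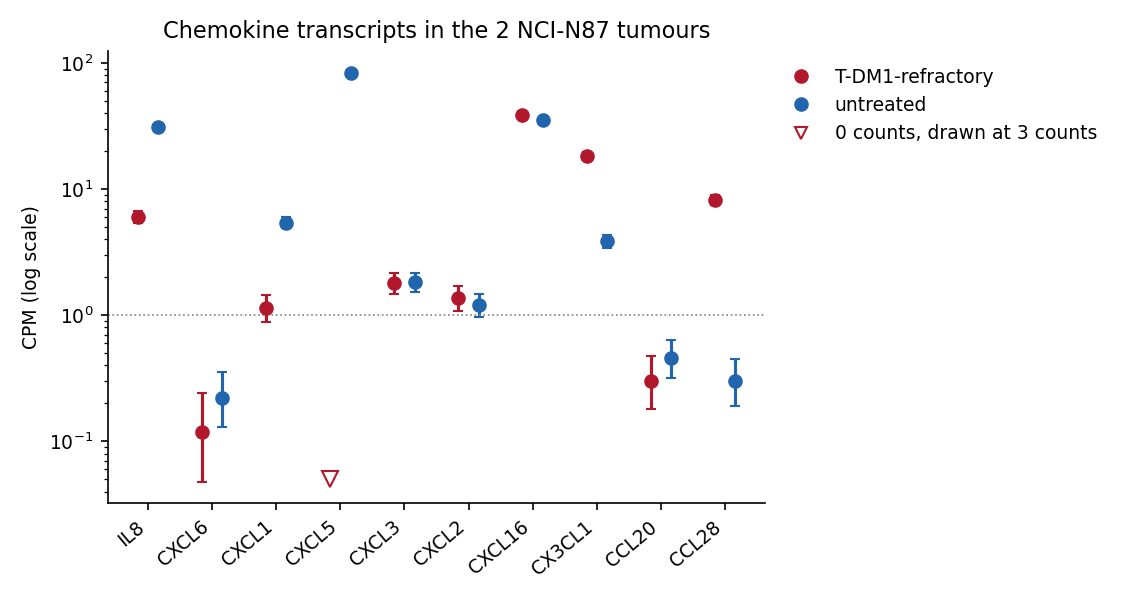
CPM on a log scale of the 10 chemokine genes in the T-DM1-refractory (red, left of each pair) and the untreated library (blue, right), with exact 95% Poisson intervals. CXCL5, at 0 counts in the refractory library, is drawn as an open triangle at 3 counts (0.0506 CPM), far below its 83.7 CPM in the untreated library; the dotted line marks 1 CPM.

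CXCL5 (ENSG00000163735.6), a ligand of CXCR2, had the largest difference of the 10. It had 0 counts in the refractory tumour, against 6396 counts or 83.7 CPM in the untreated tumour. With 3 counts (0.0506 CPM) set as a floor in place of 0, CXCL5 was 1654-fold lower there. The near end of the exact interval of the ratio is 1345-fold lower. The log2 was -6.40, and only 12 of the 14167 described genes, CXCL5 included, had a log2 at or below it. In the untreated tumour it was the most abundant of the 10 per length, and its transcripts lay above 92.5% of all genes in FPKM (the authors' values per gene length and library size).

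IL8 (ENSG00000169429.10), the founding neutrophil chemoattractant, had 358 counts or 6.03 CPM in the refractory tumour, against 2387 counts or 31.2 CPM in the untreated tumour. It was 5.17-fold lower in the refractory tumour (95% interval 4.63 to 5.80, log2 -2.20). CXCL1 (ENSG00000163739.4), a CXCR2 ligand first known as a growth factor of melanoma cells, had 68 counts or 1.15 CPM in the refractory tumour, against 415 counts or 5.43 CPM in the untreated tumour. It was 4.74-fold lower in the refractory tumour (95% interval 3.66 to 6.21, log2 -1.58). The intervals of IL8 and CXCL1 overlap each other, and neither comes near the bound of CXCL5. After adding 5 CPM in place of 1 CPM, CXCL1 was no longer past 2-fold (log2 -0.76).

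CXCL2 and CXCL3, close paralogs of CXCL1, were low in both tumours and nearly equal between them. CXCL2 (ENSG00000081041.8) had 81 counts or 1.37 CPM in the refractory tumour, against 92 counts or 1.203 CPM in the untreated tumour, a ratio of 1.13 (95% interval 0.831 to 1.55). CXCL3 (ENSG00000163734.4) had 106 counts or 1.79 CPM in the refractory tumour, against 139 counts or 1.82 CPM in the untreated tumour, a ratio of 0.983 (95% interval 0.756 to 1.27). Both intervals hold a ratio of 1 and lie wholly above the interval of CXCL1, whose ratio was 0.211 (0.161 to 0.273). The paralogs therefore differed in their ratio by more than counting error. CXCL6 (ENSG00000124875.9), the closest relative of CXCL5, had 7 counts in the refractory tumour, against 17 counts in the untreated tumour, a ratio of 0.531 (95% interval 0.186 to 1.35), and a difference was not detectable at this depth. Of its exonic bases 4.31% overlap the pseudogene PPBPP1.

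**Figure D2:**
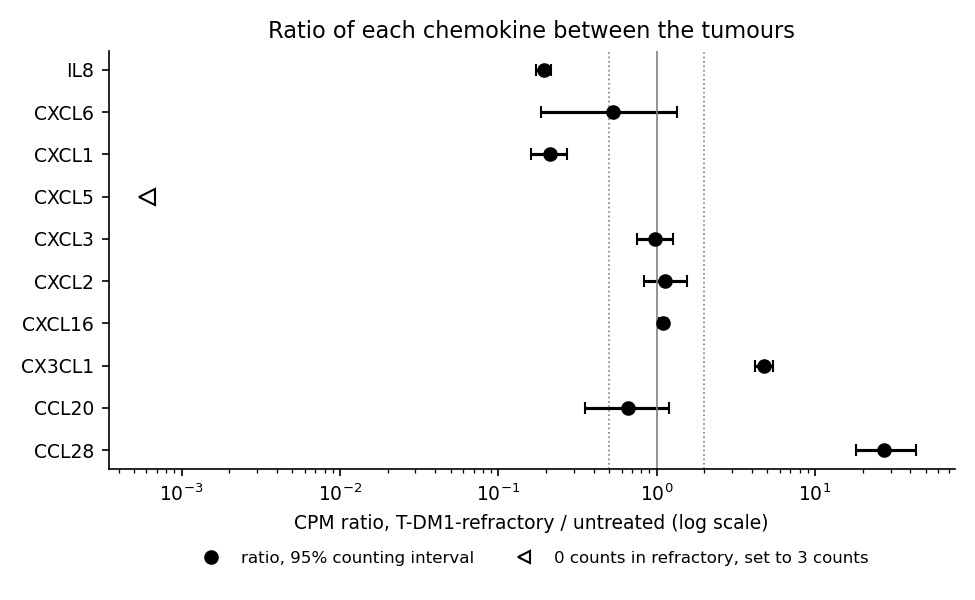
Ratio of CPM, T-DM1-refractory over untreated, on a log scale for the 10 chemokine genes, with exact 95% counting intervals; dotted lines mark 2-fold in either direction. IL8 and CXCL1 lie near 0.2, CXCL2, CXCL3 and CXCL16 near 1, CX3CL1 and CCL28 to the right at 4.76 and 27.4, and the open triangle of CXCL5 stands at its ratio for 3 counts.

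The 6 neutrophil-recruiting genes lie together on chromosome 4q13, within 358.8 kb (GRCh38, chr4:73740506-74099293, gene bounds from GENCODE 29), in the order IL8, CXCL6, CXCL1, CXCL5, CXCL3, CXCL2. The first 3 are on the plus strand and the last 3 on the minus strand. Their promoters are shown because some paralogs with similar promoters, at the identities given below, had unlike ratios. RefSeq promoters (GRCh38.p14) were matched for 8 of the 10 genes. Each line gives the 150 bases before the start site, 5′ to 3′ on the gene's strand, with GGAATTTCC, a classical NF-kB site, in capitals. In IL8 the capitals also mark TGACTCA, an AP-1 site.
CXCL5 (chr4:73998678-73998827, minus strand): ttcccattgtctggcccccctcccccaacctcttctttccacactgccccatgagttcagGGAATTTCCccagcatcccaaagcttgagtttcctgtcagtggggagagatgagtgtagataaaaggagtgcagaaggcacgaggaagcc
CXCL6 (chr4:73836528-73836677, plus strand): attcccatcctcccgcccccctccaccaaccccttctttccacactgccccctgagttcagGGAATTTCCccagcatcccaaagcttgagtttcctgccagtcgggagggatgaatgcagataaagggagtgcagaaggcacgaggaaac
CXCL1 (chr4:73869243-73869392, plus strand): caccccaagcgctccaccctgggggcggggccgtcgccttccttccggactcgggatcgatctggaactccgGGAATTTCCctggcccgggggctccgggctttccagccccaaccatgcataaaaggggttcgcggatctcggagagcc
CXCL2 (chr4:74099196-74099345, minus strand): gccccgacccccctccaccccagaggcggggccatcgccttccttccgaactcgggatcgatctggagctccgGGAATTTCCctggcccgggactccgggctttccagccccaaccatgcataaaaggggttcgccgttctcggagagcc
CXCL3 (chr4:74038690-74038839, minus strand): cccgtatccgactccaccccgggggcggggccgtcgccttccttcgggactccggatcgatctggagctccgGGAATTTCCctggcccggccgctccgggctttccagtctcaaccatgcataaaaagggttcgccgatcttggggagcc
IL8 (chr4:73740419-73740568, plus strand): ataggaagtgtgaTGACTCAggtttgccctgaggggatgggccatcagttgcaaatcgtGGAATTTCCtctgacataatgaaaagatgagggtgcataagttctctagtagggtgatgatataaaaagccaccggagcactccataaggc

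Each of the 6 promoters holds GGAATTTCC once in the 250 bases before the start site, counted from -1 at the base next to it. It stands at -90 to -82 in CXCL5, -89 to -81 in CXCL6, -78 to -70 in CXCL1 and CXCL3, -77 to -69 in CXCL2 and -91 to -83 in IL8. Searched on both strands, these 9 letters occur in 145 of 35116 promoter windows of the same length in RefSeq (0.413%), and not in the windows of CCL20 or CCL28. Another NF-kB pattern, GGGRNWYYCC, occurs in 5.21% of all windows (R is A or G, N any base, W A or T, Y C or T). It is present in CCL20 (-79 to -70) and in CXCL1, CXCL2, CXCL3, CXCL5 and CXCL6, but not in IL8 or CCL28. TGANTCA, where N is any base, occurs in 6.57% of all windows and among the 8 matched genes in IL8 alone. Over the 250 bases, the CXCL5 and CXCL6 promoters are 85.3% identical in a global alignment, CXCL1 and CXCL3 81.4%, CXCL2 and CXCL3 73.4%, and CXCL1 and CXCL2 70.1%. IL8 shares 43.9% to 47.9% of aligned positions with the other 5. The 6 genes are duplicates of each other, so the shared site is not 6 separate observations, and the site is present alike in genes that were lower (CXCL5, IL8, CXCL1) and in those that were not called (CXCL2, CXCL3).

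Reads of such paralogs can be divided between genes. Of the 50-base windows in GENCODE 29 transcripts, 4.81% of those of CXCL1, 12.5% of CXCL2 and 6.01% of CXCL3 occur in another of these 3 genes. Of the 100-base windows, none of CXCL1 is shared, while 5.00% of CXCL2 and 3.27% of CXCL3 are shared with each other. No window of CXCL5 of either length occurs in CXCL6 or CXCL1, and 1.12% of its 50-base windows occur in GLYR1. All 20 deposited counts of the 10 genes were whole numbers. The sources used here do not give the read length.

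Summed over the 6 genes, the level was 9.12 FPKM in the refractory tumour, against 70.1 FPKM in the untreated tumour. It was 7.69-fold lower in FPKM in the refractory tumour, and 11.8-fold lower in CPM (95% interval 10.9 to 12.8), in which CXCL5 weighs more. In CPM, without CXCL5 the sum was 3.82-fold lower (95% interval 3.50 to 4.17), and without CXCL5 and IL8 1.96-fold lower (1.70 to 2.27). Of the 4 genes in that last sum only CXCL1 was called lower (1.15 CPM in the refractory and 5.43 CPM in the untreated tumour). CXCL2 and CXCL3 were nearly equal between the tumours, and CXCL6 was under 1 CPM in both. The make-up of the sum differed as well. In the refractory tumour IL8 made 46.3% of the summed FPKM, CXCL3 22.3%, CXCL2 16.2%, CXCL1 14.2% and CXCL5 0%. In the untreated tumour CXCL5 made 54.6%, IL8 31.6%, CXCL1 8.79%, CXCL3 2.98% and CXCL2 1.87%.

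**Figure D3:**
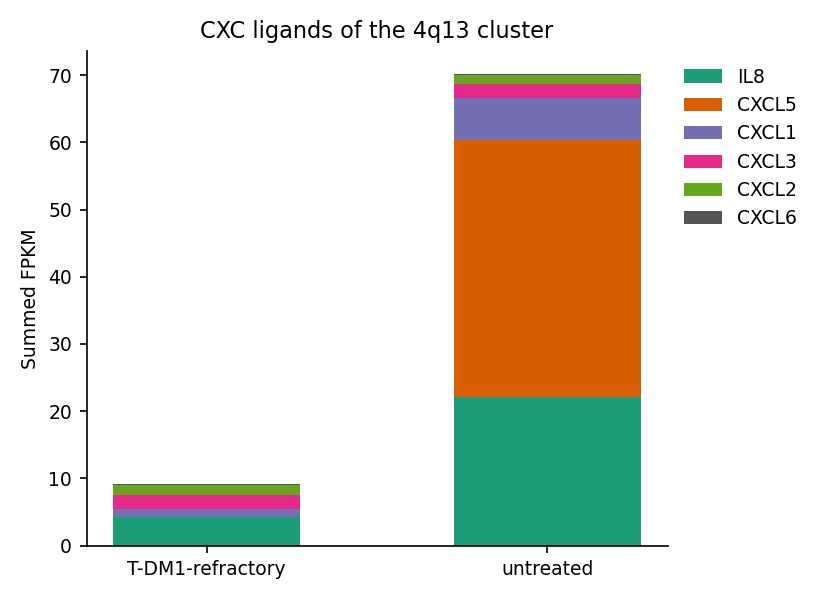
Stacked FPKM of the 6 CXC ligands of 4q13 in the T-DM1-refractory (left) and the untreated library (right), 1 library each and no error bars. The refractory bar ends at 9.12 FPKM and holds no CXCL5; the untreated bar ends at 70.1 FPKM, of which CXCL5 is 38.3.

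The genes around and between the chemokines did not share one direction. From RASSF6 to SCARB2 along chromosome 4, 16 other genes were described, 2 higher, 3 lower and 11 neither, with a median log2 of -0.14. Of all described genes 9.80% were called higher and 11.0% lower, but BTC and CXCL11 passed 1 CPM in the untreated library alone. RASSF6, 119.9 kb before IL8, stood at 232 CPM in the refractory tumour and 215 CPM in the untreated tumour. PPBP, a platelet chemokine 7.4 kb from CXCL5, had 2 counts in either library, and PF4 and PF4V1 had 0 in both. CXCL3, 37.8 kb on the other side of CXCL5, was nearly equal between the tumours, as given above. Past CXCL2, MTHFD2L, a mitochondrial folate enzyme 14.9 kb away, was 2.22-fold lower (5.58 CPM in the refractory tumour and 12.4 CPM in the untreated tumour). EREG, an EGF family ligand, stood at 50.5 CPM in the refractory tumour and 54.7 CPM in the untreated tumour, and its neighbour AREG was 10.4-fold higher in the refractory tumour (93.8 CPM, against 9.01 CPM in the untreated tumour). BTC, another EGF family ligand, was 4.70-fold lower (0.893 CPM in the refractory tumour and 4.20 CPM in the untreated tumour). PARM1 was 4.30-fold lower (3.40 CPM in the refractory tumour and 14.6 CPM in the untreated tumour), and CDKL2, with 20.8 CPM in the refractory and 8.27 CPM in the untreated tumour, was 2.51-fold higher. After adding 5 CPM, MTHFD2L, BTC and CDKL2 were not past 2-fold, nor were MTHFD2L and CDKL2 in FPKM. The 11 genes not called ranged from a log2 of -0.74 (NAAA) to 0.13 (NUP54), with RCHY1, THAP6, G3BP2, USO1 and SDAD1 among them. ALB, before RASSF6, stood at 0.539 CPM in the refractory tumour and 1.62 CPM in the untreated tumour. Farther on, the interferon-induced CXCL10 had 5 counts in the refractory tumour, against 70 counts in the untreated tumour, and CXCL11 stood at 0.506 CPM in the refractory tumour and 1.11 CPM in the untreated tumour.

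**Figure D4:**
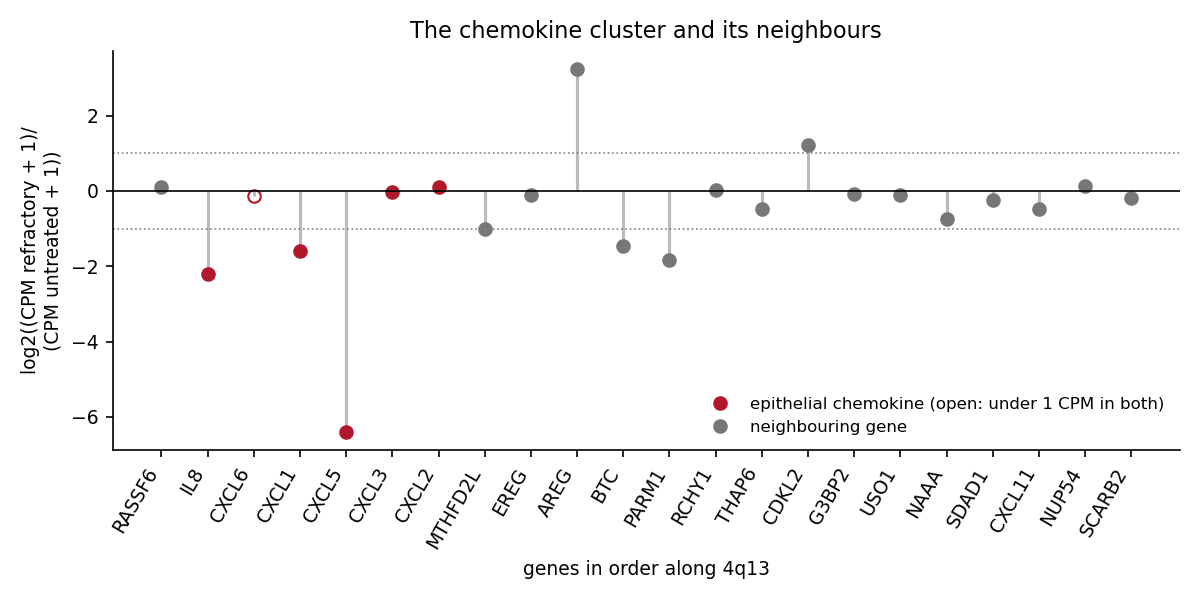
Log2 of CPM + 1, T-DM1-refractory over untreated, of genes in their order along chromosome 4 from RASSF6 to SCARB2 (evenly spaced, not to distance). Chemokines are in red and other described genes in grey, and dotted lines mark 2-fold. CXCL5 at -6.40 stands between CXCL1 at -1.58 and CXCL3 at -0.02, and AREG at 3.24 is the highest point.

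Of the other 4 epithelial chemokines, encoded outside 4q13, CCL28 and CX3CL1 were higher, CXCL16 was not called and CCL20 was under 1 CPM. CCL28 (ENSG00000151882.11, chr5:43376645-43412391), the mucosal chemokine, had 489 counts or 8.24 CPM in the refractory tumour, against 23 counts or 0.301 CPM in the untreated tumour. It was 27.4-fold higher in the refractory tumour (95% interval 18.0 to 43.6, log2 2.83), and 156 of the described genes (1.10%), CCL28 included, had a log2 at least as high. CX3CL1 (ENSG00000006210.6, chr16:57372458-57385048), the membrane-bound fractalkine, had 1090 counts or 18.4 CPM in the refractory tumour, against 295 counts or 3.86 CPM in the untreated tumour. It was 4.76-fold higher in the refractory tumour (95% interval 4.18 to 5.43, log2 2.0). The intervals of CCL28 and CX3CL1 do not overlap.

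CXCL16 (ENSG00000161921.14, chr17:4733526-4739922), which is also a scavenger receptor for oxidised lipoprotein, had 2297 counts or 38.7 CPM in the refractory tumour, against 2700 counts or 35.3 CPM in the untreated tumour. Its ratio of 1.10 (95% interval 1.04 to 1.16) is above 1 by more than counting error and far under 2-fold. Of its exonic bases 3.04% overlap MED11 on the opposite strand. CCL20 (ENSG00000115009.12, chr2:227805739-227817564) had 18 counts or 0.303 CPM in the refractory tumour, against 35 counts or 0.458 CPM in the untreated tumour. Its ratio was 0.663 (95% interval 0.353 to 1.202), and a difference was not detectable at this depth.

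Per length, the order of the 10 genes was not the same in the tumours. In the refractory tumour CXCL16 came first at 19.0 FPKM, followed by CCL28 at 14.4, CX3CL1 at 6.10 and IL8 at 4.22 FPKM. The next 3, CXCL3 at 2.04, CXCL2 at 1.48 and CXCL1 at 1.29 FPKM, had overlapping counting intervals between neighbours, and CCL20 (0.546), CXCL6 (0.0854) and CXCL5 (listed at 0) came last. In the untreated tumour CXCL5 came first at 38.3 FPKM, followed by IL8 at 22.1, CXCL16 at 18.0 and CXCL1 at 6.17 FPKM. CXCL3 at 2.09, CXCL2 at 1.31 and CX3CL1 at 1.30 FPKM followed, the last 2 with overlapping intervals, and CCL20 (0.824), CCL28 (0.472), whose intervals also overlap, and CXCL6 (0.163) came last. CXCL1 was thus below CXCL3 in the refractory tumour, where its interval overlaps that of CXCL2, and well above both paralogs in the untreated tumour.

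In the authors' deposited table, which sets 1 library against 1, the p-value was 4.52e-12 for CXCL5, 0.000201 for CCL28, 0.0367 for IL8, 0.0467 for CX3CL1 and 0.0493 for CXCL1. For the other 5 genes it lay between 0.540 (CXCL6) and 0.991 (CXCL3). The authors' deposited table gives log2 fold changes of -15.5 for CXCL5, 4.77 for CCL28, 2.25 for CX3CL1, -2.24 for CXCL1 and -2.37 for IL8. These values come from the same counts and compare the libraries, not the conditions.

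Transcripts of the receptors were few. Of the 8 receptors of these ligands, CX3CR1, CCR10 and DARC, a decoy receptor of neutrophil chemokines, had 0 counts in both tumours. CXCR1 had 0 counts in the refractory tumour, against 41 counts in the untreated tumour. It was 10.6-fold lower at the floor of 3 counts, and the near end of its exact interval is 8.24-fold lower. CXCR2 had 0 counts in the refractory tumour, against 7 counts in the untreated tumour. CXCR6 had 17 counts in the refractory tumour, against 42 counts in the untreated tumour. CCR3, one receptor of CCL28, stood at 0.0843 CPM in the refractory tumour and 5.99 CPM in the untreated tumour, 71.1-fold lower (95% interval 30.2 to 220.0). CCR6, the receptor of CCL20, stood at 2.63 CPM in the refractory tumour and 1.06 CPM in the untreated tumour, a ratio of 2.48 (1.89 to 3.29), and was under 2-fold once 1 CPM was added. The table lists human genes, so receptors on mouse leukocytes have no rows of their own. The sources used here do not say whether mouse reads were kept out of the human genes.

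Among 35 other chemokine genes in the table, 8 were described, 2 higher and 3 lower (median log2 -0.72). All described genes were called at 20.8%, but CCL15, XCL1 and CXCL17 each passed 1 CPM in 1 library alone. The share called here, 62.5%, is therefore no measure against that background. CXCL14, an epithelial chemokine that is constitutive in many tissues, stood at 3.52 CPM in the refractory tumour and 47.4 CPM in the untreated tumour, 13.5-fold lower (95% interval 11.7 to 15.6). CCL5, a chemokine that attracts T cells and monocytes, stood at 4.26 CPM in the refractory tumour and 14.2 CPM in the untreated tumour, 3.33-fold lower. CXCL17, a mucosal chemokine, stood at 0.641 CPM in the refractory tumour and 3.37 CPM in the untreated tumour, 5.27-fold lower. CCL15, which binds CCR1, had 330 counts in the refractory tumour and 12 counts in the untreated tumour, a ratio of 35.4 (95% interval 20.0 to 69.3). XCL1, known from T and NK cells, had 179 counts in the refractory tumour and 7 counts in the untreated tumour, a ratio of 33.0 (15.7 to 83.1). After adding 5 CPM, CXCL17 and XCL1 were not past 2-fold.

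Of the cytokines that activate NF-kB, IL1B, TNF and IL1A were under 1 CPM in both tumours, while IL18 and TNFSF15 were abundant in both. IL1B had 2 counts in the refractory tumour and 14 counts in the untreated tumour, TNF had 2 counts in the refractory and 5 counts in the untreated tumour. IL18 stood at 208 CPM in the refractory tumour and 124 CPM in the untreated tumour, and TNFSF15 at 58.4 CPM in the refractory and 58.1 CPM in the untreated tumour, neither of them called. Of 24 described upstream cytokines and receptors 6 were higher and 2 lower (median log2 0.35). Thus 33.3% were called, against 20.8% of all described genes, with TNFRSF1B, CSF1 and IL36RN each above 1 CPM in 1 library alone. TNFRSF1B, a TNF receptor, stood at 9.15 CPM in the refractory tumour and 0.602 CPM in the untreated tumour, a ratio of 15.2. IL22RA1, an IL22 receptor subunit of epithelia, stood at 22.0 CPM in the refractory tumour and 3.41 CPM in the untreated tumour (ratio 6.43), CSF1 at 4.64 CPM in the refractory and 0.419 CPM in the untreated tumour (ratio 11.1), and IL20RB at 62.3 CPM in the refractory and 23.3 CPM in the untreated tumour (ratio 2.68). Both lower genes encode antagonists. IL1RN, the IL1 receptor antagonist, stood at 25.9 CPM in the refractory tumour and 95.5 CPM in the untreated tumour, 3.69-fold lower (95% interval 3.49 to 3.90), and IL36RN had 0 counts in the refractory tumour, against 79 counts in the untreated tumour (log2 -1.02). IL36RN was not past 2-fold in FPKM or after adding 5 CPM, and CSF1 was not past it after adding 5 CPM.

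Transcripts of the NF-kB machinery were largely level, and NF-kB activity was not measured. Of 40 described subunits and regulators 2 were higher, 2 lower and 36 neither (10% called, against 20.8% of all described genes), with a median log2 of 0.02. Of the called genes, IRAK3 and IRAK2 each passed 1 CPM in 1 library alone. IRAK3, a brake on IL1 and Toll-like receptor signalling, stood at 0.354 CPM in the refractory tumour and 48.2 CPM in the untreated tumour, 136-fold lower (95% interval 89.0 to 220.4). REL, an NF-kB subunit, was 2.27-fold lower (8.83 CPM in the refractory tumour and 20.1 CPM in the untreated tumour). IRAK2, a kinase of the same pathway, stood at 9.73 CPM in the refractory tumour and 0.746 CPM in the untreated tumour, a ratio of 13.05 (9.93 to 17.4), and TNIP2, which binds the inhibitor TNFAIP3, was 3.20-fold higher (26.4 CPM in the refractory tumour and 8.24 CPM in the untreated tumour). REL was not past 2-fold after adding 5 CPM.

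Of 15 transcription factors known to act on the IL8 promoter or its family, 4 were higher, 1 lower and 10 neither (median log2 0.08). That is 33.3% called, against 20.8% of all described genes. ATF3 stood at 47.7 CPM in the refractory tumour and 8.87 CPM in the untreated tumour (ratio 5.38), and CEBPA at 5.48 CPM in the refractory and 1.15 CPM in the untreated tumour (ratio 4.76). The AP-1 subunit FOSL1 stood at 20.6 CPM in the refractory and 6.40 CPM in the untreated tumour (ratio 3.23), and FOS at 44.7 CPM in the refractory and 15.2 CPM in the untreated tumour (ratio 2.95). JUNB was 3.04-fold lower, at 14.8 CPM in the refractory tumour and 44.9 CPM in the untreated tumour. CEBPA was not past 2-fold after adding 5 CPM. None of 12 factors that govern the decay of AU-rich transcripts was called (median log2 -0.22), against 20.8% of all described genes. The most abundant of them was HNRNPD, at 408 CPM in the refractory tumour and 373 CPM in the untreated tumour.

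Of the 6 proteases and cofactors that release CXCL16 and CX3CL1 or belong to their family, 1 was higher and 1 lower (median log2 -0.66). The share called was 33.3%, against 20.8% of all described genes. ADAM10, the protease of constitutive shedding, was 3.11-fold lower, at 398 CPM in the refractory tumour and 1238 CPM in the untreated tumour (95% interval 3.06 to 3.15). ADAM9 was 2.85-fold higher, at 488 CPM in the refractory tumour and 171 CPM in the untreated tumour. ADAM17, the protease of induced shedding, stood at 70.3 CPM in the refractory tumour and 76.8 CPM in the untreated tumour.

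**Figure D5:**
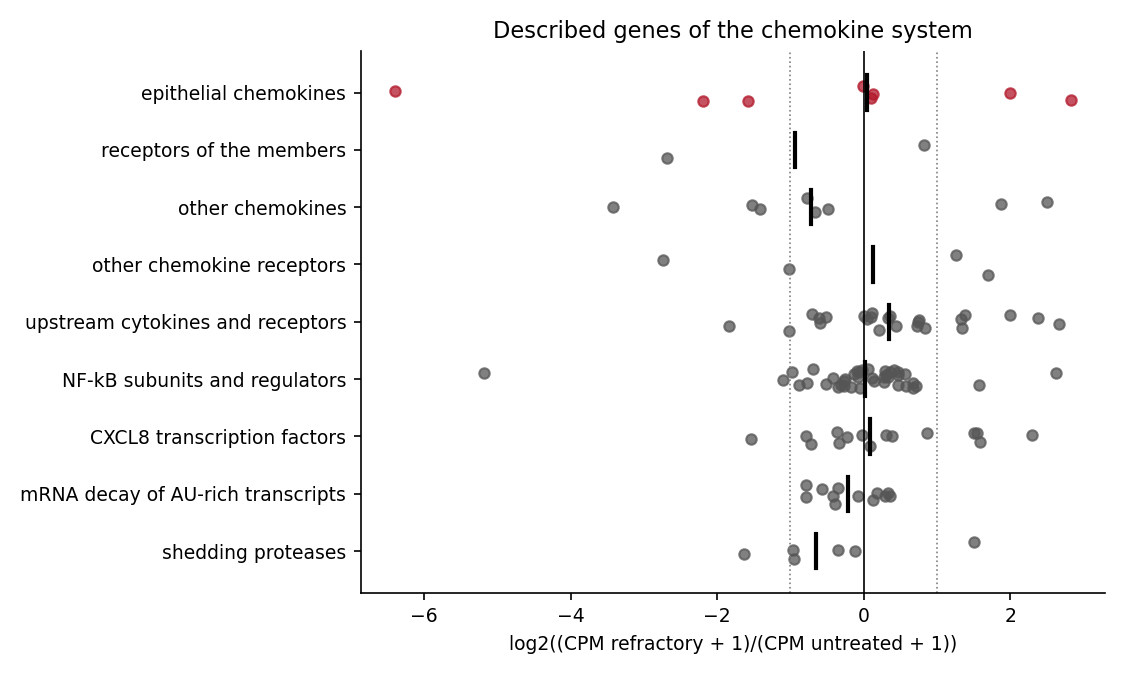
Log2 of CPM + 1, T-DM1-refractory over untreated, of the described genes in each list (points, spread vertically for display), with the list median as a black bar; dotted lines mark 2-fold. The epithelial chemokines range from -6.40 to 2.83 around a median of 0.04, while 36 of the 40 NF-kB genes lie inside the dotted lines.

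The markers of an epithelial tumour were present. All 9 epithelial markers were described, 1 higher (KRT7, a keratin, at a log2 of 1.02, and not past 2-fold under 4 of 7 alternatives) and 0 lower, with summed levels of 14565 CPM in the refractory tumour and 14891 CPM in the untreated tumour. Of 16 leukocyte markers 5 were described, 3 higher and 1 lower, with summed levels of 130 CPM in the refractory tumour and 39.96 CPM in the untreated tumour. LYZ (95.9 CPM in the refractory and 27.2 CPM in the untreated tumour) and CD68 (29.2 CPM in the refractory and 3.62 CPM in the untreated tumour), which epithelial cells can also express, made up most of these sums. ITGAM, an integrin subunit of myeloid cells, was the third higher marker, with 197 counts in the refractory tumour and 32 counts in the untreated tumour, 7.93-fold higher, and was not past 2-fold in FPKM or after adding 5 CPM. CD14, a monocyte receptor, had 85 counts in the refractory tumour and 34 counts in the untreated tumour and was not called, and MPO, a neutrophil enzyme, had 1 count in the refractory tumour and 76 counts in the untreated tumour, under 1 CPM in both. The lower marker was S100A9, at 0.320 CPM in the refractory tumour and 7.23 CPM in the untreated tumour. Of all described genes 20.8% were called, against 11.1% of the epithelial markers. ITGAM, CD14 and S100A9 each passed 1 CPM in 1 library alone. The share called among the 5 described leukocyte markers is therefore no measure against that background. The defining markers CD3E, MS4A1, CSF3R, FCGR3A, FCGR3B and TYROBP had 0 counts in both tumours, and PTPRC had 17 counts in the refractory and 5 counts in the untreated tumour. The part of these markers in the chemokine differences was not tested. Of 13 fibroblast and endothelial markers 2 were described and none was called, with sums of 3.30 CPM in the refractory tumour and 5.06 CPM in the untreated tumour. The genes listed are human, so leukocytes, fibroblasts and vessels of the mouse host have no rows of their own. Counts of 0 therefore do not show that such cells were absent. Whether mouse reads were kept out of the human genes is not given, so low counts cannot be assigned to either species.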

How the data were processed

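RNA of 1 T-DM1-refractory and 1 untreated NCI-N87 xenograft tumour was analysed from 1 table. The deposited read counts are expected counts, not all whole numbers, and the deposited FPKM values are scaled by gene length and library size, per the file headers. The submitters' processing notes name RSEM 1.2.28, STAR 2.7.0e, edgeR 3.26.8 and bcl2fastq 2.20, and the builds GRCh38 and GRCm38, with no roles; which annotation was used and what the mouse build served for is not given there. The authors' log2 fold change runs refractory over untreated: for the 13005 genes above 50 reads in each library, the gap to log2 of the TMM-scaled ratio was at most 0.0194. The dispersion behind the authors' p-value is not given either.

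Expected counts were rounded, TMM factors (0.990 for the refractory and 1.01 for the untreated library) came from edgeR 4.0.16 (R 4.3.3), and CPM was taken on the scaled sizes. Ratios carry exact 95% Clopper-Pearson intervals of 2 Poisson counts, given their sum; these cover counting error only, as PCR copies were not marked by molecular identifiers. The floor of 3 counts is 0.0506 CPM in the refractory and 0.0392 CPM in the untreated library. Calling and intervals were tested only on simulated Poisson counts, which hold no variation between tumours and left out genes of low abundance. That test therefore covers counting error alone. No p-value was computed. Members and lists were chosen with earlier results of these data known. Named are the 10 genes, their receptors, described 4q13 neighbours, and up to 4 called genes per list and direction, or its most abundant gene; ADAM17, the uncalled upstream cytokines and leukocyte markers, CXCL10, PPBP, PF4, PF4V1 and genes named for shared letters were added after their values were seen. Some results under these rules are left out here. Promoter alignments used Biopython 1.88. Alternatives were other scalings, pseudocounts, filters, thresholds and FPKM.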

Additional observations from a re-analysis of the deposited data

How the results depend on the processing

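With 10 CPM as the minimum in the higher library, 1 of the chemokine genes was called higher in place of 2, and 2 lower in place of 3. Their median log2 was -1.03, since only CXCL5, IL8, CXCL16 and CX3CL1 were then described. At a 4-fold threshold 1 was called higher, as CX3CL1, at a log2 just under 2, was left out, and 2 lower, as CXCL1 was left out. A pseudocount of 5 CPM also left 2 called lower in place of 3, without CXCL1. Both counts were as in the main analysis under 3 other scalings, a pseudocount of 0.1 CPM, the deposited FPKM, no filter and a 1.5-fold threshold. None of the 10 genes changed the sign of its log2 under the 6 other scalings, pseudocounts and units, and a filter cannot change it. CXCL1 lay past 2-fold under 5 of these 6, the exception being a pseudocount of 5 CPM (-0.76), and with CCL28 it was not described at a minimum of 10 CPM. CXCL5 ranged from -9.71 to -4.15, IL8 from -2.35 to -1.71, CX3CL1 from 1.40 to 2.22 and CCL28 from 1.32 to 4.38, all past 2-fold under these 6. Of 144 counts of called genes in the other lists 21 moved by more than 1.5 times or changed to or from 0. These 144 cover scalings, pseudocounts, filters and FPKM, without the other thresholds and the marker lists. No paired analysis was possible because each group holds 1 library. Depth limits CXCL6 and CCL20, at 7 to 35 counts, most.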

Other observations

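A group of chemokine receptor genes that neighbour each other on chromosome 3p21 was scarcer in the refractory tumour, beside one that was more abundant. CCR1 had 16 counts in the refractory tumour and 572 counts in the untreated tumour, 27.7-fold lower (95% interval 16.9 to 48.9). CCR3 had 5 counts in the refractory tumour and 458 counts in the untreated tumour. CCR2 had 4 counts in the refractory tumour and 36 counts in the untreated tumour. CCRL2, an atypical receptor in the same group, had 109 counts in the refractory tumour and 14 counts in the untreated tumour, a ratio of 10.03 (5.73 to 19.0). These genes were grouped by position after their values were seen. Of the other chemokine receptors, the decoy receptor ACKR4 stood at 7.35 CPM in the refractory tumour and 1.58 CPM in the untreated tumour, 4.64-fold higher, and CCR7 had 9 counts in the refractory tumour and 102 counts in the untreated tumour, 8.79-fold lower. In all, 4 of the 16 other receptors were described, 2 higher (CCRL2 and ACKR4) and 2 lower (CCR1 and CCR7). Of all described genes 20.8% were called, but CCR1, CCR7 and CCRL2 each passed 1 CPM in 1 library alone. Only CCR1 was past 2-fold after adding 5 CPM, CCR7 and CCRL2 were not past it in FPKM, and none of the 16 reached 10 CPM.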
